A study of Homo sapiens with 9 samples.

Results

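The genes described here are IL24 and IL32, together with the 4 receptor chains that IL24 and its closest relatives use: IL20RA, IL20RB, IL22RA1 and IL10RB. They are 6 of the 60649 genes in the count table. IL24 and IL32 were chosen by their measured log2 fold changes, for large falls with both hairpins against AHR, so their differences between the groups are a description here and are given no test. The 4 receptor chains were chosen for their role and were tested.

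All 9 libraries are bulk RNA sequencing of MDA-MB-231, an established triple-negative breast cancer cell line that the labels describe as mammary epithelial cells and as proliferating. The cells were transduced with lentivirus and selected with puromycin, and stayed pools rather than clones. In the control group of 3 libraries they carry the vector pLKO-GFP, and in the other groups, of 3 libraries each, they carry shAHR#2 or shAHR#3, hairpin RNAs against the aryl hydrocarbon receptor gene AHR; vector and selection were shared by all groups. The hairpin numbers are those of the labels, and how they match the numbering in the study's methods was not settled. The comparisons ask what depletion of AHR, a ligand-activated transcription factor, does to transcript levels. The labels do not say that the replicates were separate cultures, so that p-values measure only the spread between these libraries, which may be technical.

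IL24 is a secreted cytokine of the IL-10 family, first described in melanoma cells made to differentiate. It signals through IL20RB joined to either IL20RA or IL22RA1, and the bound receptors activate JAK kinases and transcription factors such as STAT3. IL10RB does not bind IL24 but is the shared chain of the receptors for IL22, IL26, IL10 and the lambda interferons. IL32 belongs to no cytokine family. It is made in many splice forms, acts largely inside the cell and is known for inducing other inflammatory cytokines and for being induced by them.

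In GRCh38 with the GENCODE 44 annotation, IL24 lies at chr1:206897443-206904139 on the plus strand and IL32 at chr16:3065297-3082192 on the plus strand. IL20RA lies at chr6:136999971-137045180 on the minus strand, IL20RB at chr3:136946230-137011085 on the plus strand, IL22RA1 at chr1:24119771-24143140 on the minus strand and IL10RB at chr21:33266367-33311420 on the plus strand. Each is protein coding, with 7 exons in its canonical transcript. IL32 has 35 annotated transcripts and IL22RA1 has 1.

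For the 3 members with the largest differences between groups, the 250 bases before the RefSeq transcription start are shown 5′ to 3′ on the gene's own strand (RefSeq on GRCh38.p14), because the promoter is where a transcription factor such as AhR could act. They lie at chr1:206897193-206897442 (IL24), chr16:3065153-3065402 (IL32) and chr6:137044966-137045215 (IL20RA, minus strand). GENCODE's outermost starts of IL32 and IL20RA lie inside these windows. Capitals mark the matches to motifs searched on both strands.
IL24: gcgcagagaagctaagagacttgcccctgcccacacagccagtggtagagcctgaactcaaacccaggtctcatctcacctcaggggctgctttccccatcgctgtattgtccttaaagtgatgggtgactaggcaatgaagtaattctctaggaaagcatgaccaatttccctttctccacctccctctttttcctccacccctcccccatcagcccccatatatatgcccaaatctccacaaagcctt
IL32: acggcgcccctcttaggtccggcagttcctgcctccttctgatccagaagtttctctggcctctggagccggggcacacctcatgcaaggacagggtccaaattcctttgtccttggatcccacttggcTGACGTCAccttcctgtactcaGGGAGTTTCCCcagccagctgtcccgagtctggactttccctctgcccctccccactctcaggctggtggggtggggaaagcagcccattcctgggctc
IL20RA: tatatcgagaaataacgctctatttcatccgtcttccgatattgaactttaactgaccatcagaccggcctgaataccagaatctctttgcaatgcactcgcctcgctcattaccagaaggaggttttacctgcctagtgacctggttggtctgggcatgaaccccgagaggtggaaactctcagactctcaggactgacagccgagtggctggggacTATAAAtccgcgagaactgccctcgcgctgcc

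The IL32 window holds the cyclic AMP response element TGACGTCA, whose first base is at -121 from the start and which 1.65% of all 35116 RefSeq promoter windows of this length hold. It also holds an NF-kB motif at -99 and, overlapping it, a match on the other strand at -98; 9.96% of all windows hold an NF-kB match. The IL20RA window holds TATAAA at -32, found in 10.7% of windows. None of the 6 members' windows holds GCGTG, the core letters of the element that AhR binds, which 32.2% of all windows hold. The IL20RB window, at chr3:136957733-136957982, lies inside the GENCODE span of that gene, so the bases before its outermost start were not searched. The AP-1 motif TGANTCA and the C/EBP motif TTNNGCAA, in 6.57% and 9.05% of windows, were found among the members at IL22RA1 alone, at -223 and -172, where an NF-kB match at -157 was also found. The cyclic AMP and NF-kB motifs were added after the sequences were seen. The IL24 window matched no motif searched and holds 2 CpG dinucleotides, against a median of 11 over all windows and 13 in the IL20RA window. A match is a description of letters only.

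The hairpins lowered the transcript they target. AHR stood at 114, 118 and 121 CPM (read counts scaled by TMM to one common library size) in the pLKO-GFP libraries, at 42.5, 40.4 and 41.9 CPM with shAHR#2 and at 46.3, 52.1 and 44.5 CPM with shAHR#3, which is 35.3% ± 0.912 and 40.5% ± 3.39 of the control mean (SD, n = 3). Total counts per library were 15991396 to 20374460. At that depth 3 counts in a library, taken as the limit that a count of 0 allows, are 0.146 to 0.193 CPM. Such limits cover counting error only, whereas the 95% intervals come from the fit and reflect the spread between these libraries. Most markers of the line were abundant: a list of 8 genes led by VIM summed to 6918 to 7074 CPM in pLKO-GFP, 9067 to 9295 with shAHR#2 and 7949 to 8063 with shAHR#3. SPARC, also on this list, was scarce, with means of 1.77, 1.09 and 2.40 CPM in the same order. The luminal list of 6 genes summed to between 77.9 and 97.3 CPM in all libraries, with PGR at 0. Most of that sum was ERBB2, with means of 62.4, 62.8 and 71.8 CPM.

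IL24 was among the transcripts with the deepest falls in both knockdowns. The pLKO-GFP libraries held 132, 118 and 121 reads of it, or 7.45, 5.89 and 6.13 CPM. With shAHR#2 the counts were 7, 2 and 6, or 0.375, 0.128 and 0.380 CPM. With shAHR#3 they were 8, 16 and 14, or 0.411, 0.819 and 0.683 CPM. Every knockdown library was far below every control library, and none of the shAHR#3 libraries reached as low as any shAHR#2 library. The remaining level was 4.54% ± 2.21 of the control mean with shAHR#2 and 9.83% ± 3.19 with shAHR#3 (SD, n = 3).

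The fitted log2 fold change of IL24 was -4.40 (SE 0.288, 95% interval -4.99 to -3.82) with shAHR#2, a 21.2-fold lower level, and -3.33 (SE 0.237, interval -3.81 to -2.85) with shAHR#3, a 10.0-fold lower level. Counted from the largest fall of the 14274 genes tested, IL24 was number 50 with shAHR#2 and number 38 with shAHR#3. These values are those on which IL24 was chosen. Because the RNA is from bulk cells, fewer cells making IL24 and less IL24 RNA per cell cannot be told apart.

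**Figure D1:**
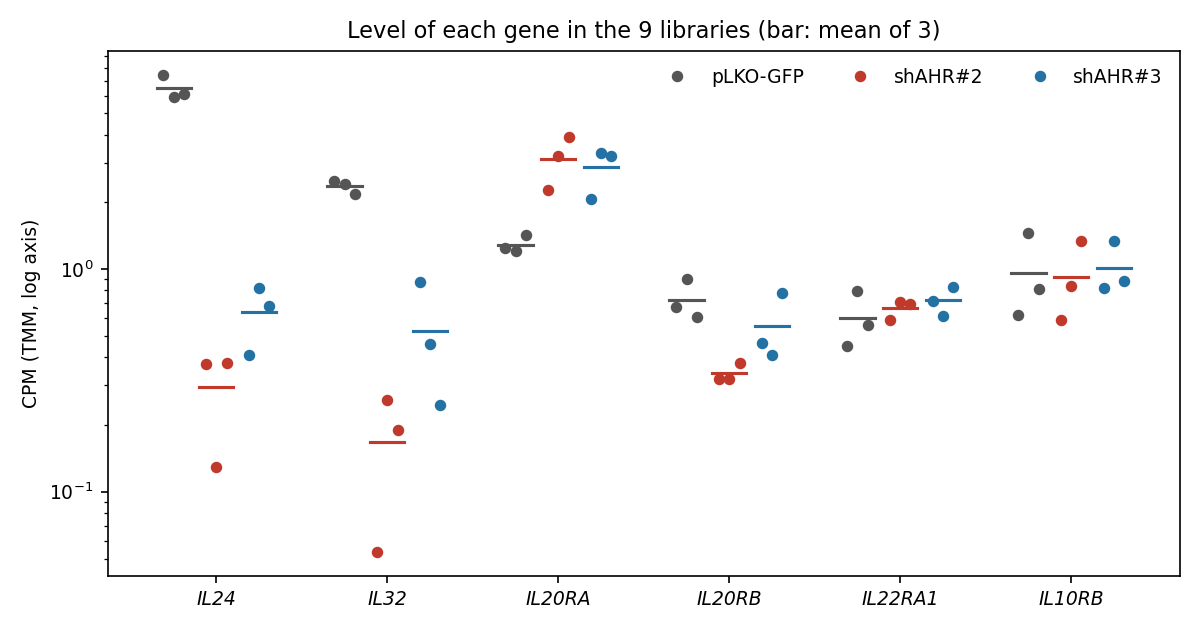
CPM (TMM-scaled, log axis) of the 6 genes in each of the 9 libraries, coloured by group, with a bar at the mean of 3. IL24 and IL32 lie lower in every knockdown library than in any pLKO-GFP library, IL20RA lies higher in every one, and IL22RA1 and IL10RB overlap between all groups.

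IL32 moved in the same direction, with a wider relative scatter in the knockdown groups. The control libraries held 44, 48 and 43 reads, or 2.48, 2.40 and 2.18 CPM. With shAHR#2 the counts were 1, 4 and 3, or 0.0536, 0.257 and 0.190 CPM, and with shAHR#3 they were 17, 9 and 5, or 0.874, 0.461 and 0.244 CPM. Both knockdown groups lay wholly below the control, while the third shAHR#3 library lay below the second shAHR#2 library, so that the knockdown groups overlap. The level left was 7.09% ± 4.40 of the control mean with shAHR#2 and 22.4% ± 13.6 with shAHR#3 (SD, n = 3).

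The fitted log2 fold change of IL32 was -3.82 (SE 0.445, interval -4.72 to -2.92) with shAHR#2, or 14.1-fold lower, and -2.16 (SE 0.335, interval -2.84 to -1.48) with shAHR#3, or 4.46-fold lower. It was number 68 and number 88 from the largest fall. The counts of 1 to 17 reads in the knockdown libraries set how closely these sizes are known.

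Both genes had more reads with shAHR#3 than with shAHR#2. IL32 was higher by 1.66 on the log2 scale (SE 0.588, interval 0.47 to 2.86), a value that was 1.19 without shAHR#2 replicate 1 and 1.10 without shAHR#3 replicate 1. IL24 was higher by 1.08 (SE 0.449, interval 0.17 to 1.99), with values that do not overlap between the hairpins. Both genes were chosen on these knockdown values and entered the fit only through the control libraries, so that these differences too were not tested.

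**Figure D2:**
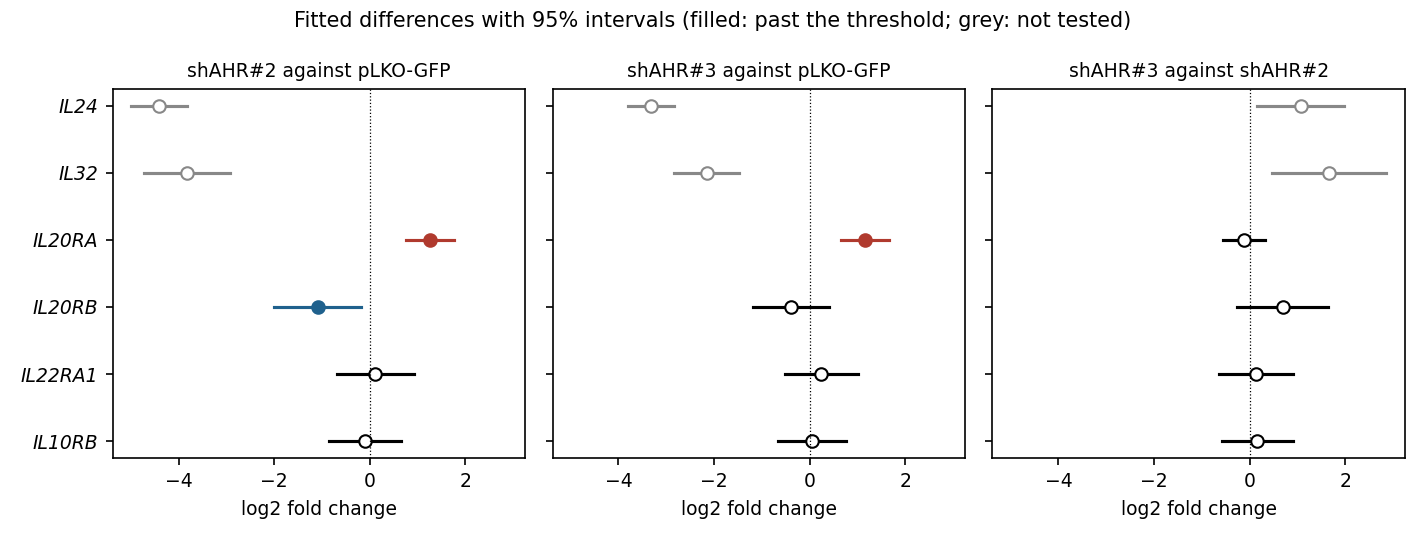
Fitted log2 fold change (horizontal axis) of each gene in 3 comparisons, with 95% intervals; filled points passed an adjusted p of 0.05, open black points did not, and grey points, IL24 and IL32, were not tested. IL20RA is the only receptor chain called with both hairpins, at 1.26 and 1.15, and IL20RB is called with shAHR#2, at -1.09, having passed the filter only through its control values.

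Of the 4 receptor chains, 1 was higher and 1 was lower with shAHR#2, in a comparison that called 65.8% of all genes tested. With shAHR#3, 1 was higher and none was lower, where 54.4% of all genes were called. Neither share of the 4 chains is above that of genes in general. None of the 4 passed the test between the hairpins, in which 42.3% of all genes were called.

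IL20RA, which joins IL20RB to bind IL19, IL20 and IL24, rose with both hairpins. It had 22, 24 and 28 reads in the control libraries (1.24, 1.20 and 1.42 CPM), 42, 50 and 62 reads with shAHR#2 (2.25, 3.21 and 3.92 CPM), and 40, 65 and 66 reads with shAHR#3 (2.06, 3.33 and 3.22 CPM). All 6 knockdown libraries exceeded all 3 controls. The rise was 2.40-fold with shAHR#2 (log2 1.26, SE 0.25, interval 0.75 to 1.77, edgeR adjusted p = 3.52e-05) and 2.23-fold with shAHR#3 (log2 1.15, SE 0.247, interval 0.65 to 1.65, adjusted p = 0.000136). The hairpins differed by -0.11 (interval -0.55 to 0.33, adjusted p = 0.728). The direction of IL20RA was thus opposite to that of IL24 in the same libraries. The other chains of the IL24 receptors, IL20RB and IL22RA1, showed no called rise with either hairpin.

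IL20RB, the chain that both IL24 receptors share, was scarce. Its counts were 12, 18 and 12 in the control (0.678, 0.899 and 0.608 CPM), 6, 5 and 6 with shAHR#2 (0.322, 0.321 and 0.380 CPM) and 9, 8 and 16 with shAHR#3 (0.463, 0.409 and 0.781 CPM). The shAHR#2 libraries lay below all controls, and the shAHR#3 libraries overlapped them. The log2 difference with shAHR#2 was -1.09 (SE 0.450, interval -2.0 to -0.18, adjusted p = 0.0329), a 2.13-fold lower level. IL20RB passed the filter on low counts only through the control libraries, where it is high, which favours a fall in this test, so the call is no support for one. With shAHR#3 the difference was -0.39 (interval -1.19 to 0.40, adjusted p = 0.413). Between the hairpins it was 0.69 higher with shAHR#3 (interval -0.26 to 1.65, adjusted p = 0.249), and their values do not overlap. The shAHR#2 call was lost with DESeq2 (adjusted p = 0.0819), with no filter on low counts (0.0634), and without pLKO-GFP replicate 2 (-0.90, adjusted p = 0.125), shAHR#2 replicate 1 (0.0835) or shAHR#2 replicate 2 (0.0717).

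IL22RA1, the other partner of IL20RB and also the ligand-binding chain for IL22, had 8, 16 and 11 reads in the control, 11 in each shAHR#2 library and 14, 12 and 17 with shAHR#3. Its log2 difference was 0.12 with shAHR#2 (interval -0.68 to 0.92, adjusted p = 0.808) and 0.25 with shAHR#3 (interval -0.51 to 1.01, adjusted p = 0.602). IL10RB had 11, 29 and 16 reads in the control, 11, 13 and 21 with shAHR#2, and 16, 26 and 18 with shAHR#3. Its difference was -0.10 (interval -0.86 to 0.65, adjusted p = 0.825) and 0.06 (interval -0.66 to 0.77, adjusted p = 0.906). Between the hairpins IL22RA1 differed by 0.13 (interval -0.64 to 0.90, adjusted p = 0.818) and IL10RB by 0.16 (interval -0.59 to 0.90, adjusted p = 0.765). The values of both genes overlap between all groups, and at these counts the intervals leave room for changes of up to about 1 on the log2 scale in either chain.

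**Figure D3:**
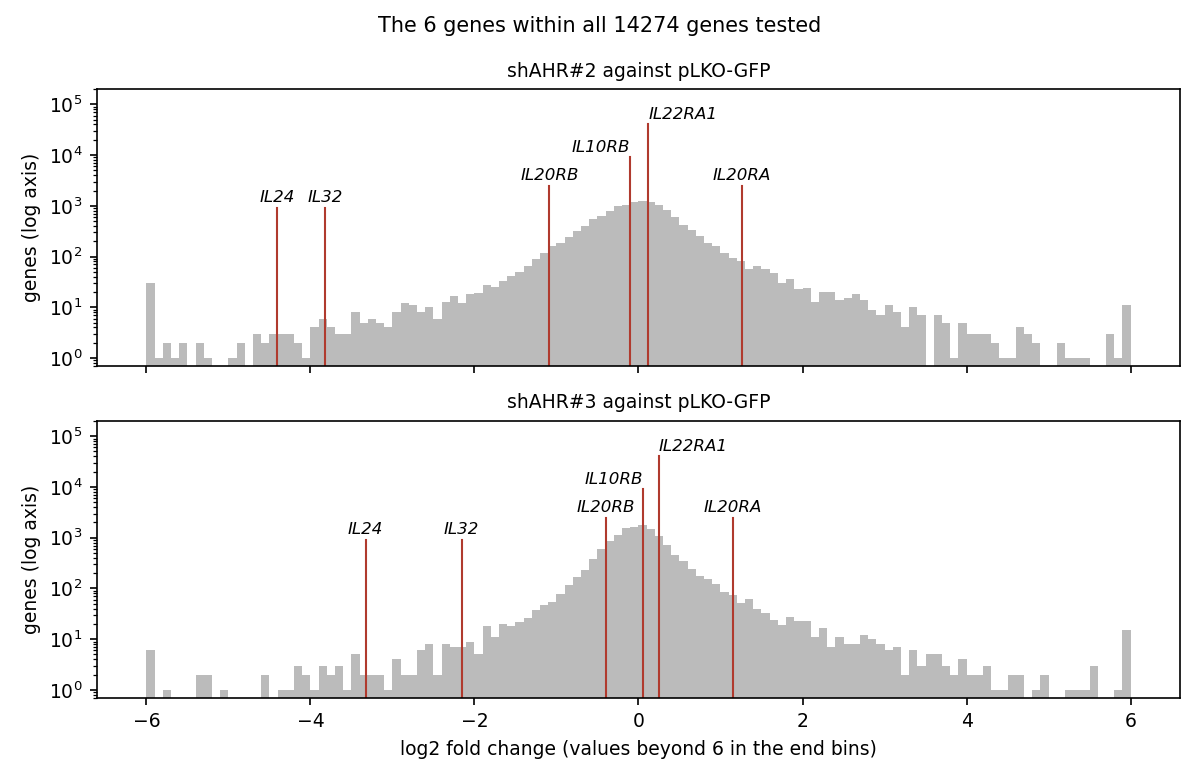
Number of genes (log axis) by log2 fold change in bins of 0.1, for all 14274 genes tested against pLKO-GFP, with the 6 genes marked by red lines. IL24 and IL32 lie in the thin left tail of both panels, IL22RA1 and IL10RB lie near the peak, and IL20RA lies on the right slope, as number 603 and number 506 from the highest.

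To compare levels between genes, CPM was divided by the length of the canonical transcript. In the control cells IL24 had the highest level per length of the 6, 3.29 ± 0.426 CPM per kb, followed by IL32 at 2.88 ± 0.194 CPM per kb; their ranges overlap (2.98 to 3.77 and 2.66 to 3.04 CPM per kb). All 4 receptor chains lay lower on this scale, from IL10RB at 0.494 ± 0.223 through IL20RB at 0.377 ± 0.0788 and IL20RA at 0.369 ± 0.0333 to IL22RA1 at 0.214 ± 0.0632 CPM per kb (SD, n = 3 each). IL10RB, IL20RB and IL20RA overlap, whereas IL22RA1, at 0.160 to 0.284 CPM per kb, lay wholly below IL20RA, at 0.344 to 0.407 CPM per kb. With the knockdowns the order at the top changed. IL20RA had the highest mean level per length of the 6, at 0.897 ± 0.240 CPM per kb with shAHR#2 and 0.823 ± 0.202 CPM per kb with shAHR#3. IL24 stood at 0.149 ± 0.0728 CPM per kb with shAHR#2, the lowest of the 6 on this scale, and at 0.323 ± 0.105 CPM per kb with shAHR#3. IL32 stood at 0.204 ± 0.127 and 0.643 ± 0.392 CPM per kb; with shAHR#3 it was still second, and its range of 0.298 to 1.07 CPM per kb overlaps that of IL20RA, 0.590 to 0.954 CPM per kb. IL22RA1 was again last with shAHR#3, at 0.256 ± 0.0383 CPM per kb. IL20RA was the highest also when CPM was divided by the union of all annotated exons, at 0.661 and 0.607 CPM per kb. With that divisor IL32 dropped to 0.733 ± 0.0493 CPM per kb in the control, because its 35 transcripts have a union much longer than the canonical one, and the order of the receptor chains changed. With shAHR#2, IL32 was then the lowest, at 0.0520 CPM per kb, and IL24, at 0.149 CPM per kb, was number 3 of the 6.

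Some reads could belong to overlapping genes, since the strand and overlap settings of the counting are not given in the sources used here. FCMR, which encodes a receptor for the Fc part of IgM, lies on the opposite strand and shares 823 exon bases with IL24, 41.6% of the IL24 exon bases. FCMR fell too, from 7.17, 5.59 and 4.86 CPM to 0.804, 1.16 and 0.506 CPM with shAHR#2 (log2 -2.82, adjusted p = 3.62e-13) and 2.16, 2.10 and 2.44 CPM with shAHR#3 (log2 -1.38, adjusted p = 5.63e-08). There were 1.11 IL24 reads per FCMR read in pLKO-GFP, 0.366 in shAHR#2 and 0.286 in shAHR#3 libraries, so that IL24 fell further than FCMR. How many reads of either gene come from the other strand was not tested. Inside IL32 lie RNU1-125P and, with no shared exon bases, the opposite-strand gene ENSG00000262370, both at 0 counts. IL20RB shares 66 exon bases, 2.70% of its own, with NCK1 on the same strand, an adaptor gene with 5588 reads in all, and 37 with IL20RB-AS1, which had none. IL10RB shares 1732 exon bases, 21.6% of its own, with the readthrough gene IFNAR2-IL10RB, which had 7 reads.

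IL24 was the only one of 9 IL-10 family ligands with enough reads for the test. IL10 had 1, 1 and 3 reads in the pLKO-GFP libraries, 1, 0 and 1 in those of shAHR#2, and 8, 5 and 5 in those of shAHR#3. IL19, which uses the same receptor as IL24, had 3 reads over the control libraries and 1 over each knockdown group, and IFNL1 had 1 read in all. IL20, IL22, IL26, IFNL2 and IFNL3 had none in any library, which allows each up to 0.193 CPM in the shallowest library. Among the 7 receptor chains of the family, IL10RA had 2 reads, both in the control, and IL22RA2 had none. IFNLR1, which joins IL10RB to bind the lambda interferons, was the most abundant by CPM of the 5 chains tested. It rose from 3.45, 5.14 and 4.71 CPM to 6.54, 7.06 and 5.95 CPM with shAHR#2 (log2 0.55, adjusted p = 0.00132) and 6.33, 7.52 and 7.42 CPM with shAHR#3 (log2 0.67, adjusted p = 0.000105). The median log2 fold change of the 5 chains tested was 0.12 with shAHR#2 and 0.25 with shAHR#3, where over all genes it was -0.0032 and -6.9e-05.

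Downstream of the receptors, 8 of 9 JAK-STAT genes were tested. With shAHR#2, 4 rose and 2 fell (median log2 0.15), and with shAHR#3, 5 rose and 2 fell (median 0.29), where 65.8% and 54.4% of all genes were called. SOCS1, a feedback inhibitor of JAK kinases, went from 1.35 to 0.36 and 0.606 CPM (log2 -1.91 and -1.17, adjusted p = 0.000118 and 0.00562). SOCS1 passed the filter on low counts only through the control libraries, where it is high, so its calls are no support for a fall. SOCS3, the inhibitor induced by STAT3, rose from 45.6 to 74.9 and 75.8 CPM (log2 0.71 and 0.73). PIAS3, which binds STAT3, rose by 0.44 and 0.59, and the kinase JAK2 by 0.43 and 0.53. STAT3 itself rose by 0.28 and 0.36; it was picked for its role at the receptor, after its values were seen. JAK1, the kinase bound to IL20RA and IL22RA1, was at 128, 130.2 and 128.2 CPM and was not called.

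Of 12 tested genes through which IL24 has been described to act on cell survival and stress, 3 rose and 4 fell with shAHR#2, and 3 rose and 6 fell with shAHR#3; the medians were 0.02 and -0.07. Over all genes 65.8% and 54.4% were called. CLU, a secreted chaperone, rose from 37.0 to 103.7 CPM with shAHR#2 and 68.9 CPM with shAHR#3 (log2 1.49 and 0.90). BCL2, which blocks apoptosis, fell from 16.4 to 9.65 and 10.6 CPM (log2 -0.76 and -0.63), whereas MCL1, which does the same, rose by 0.82 and 0.25. HSPA5, the chaperone BiP of the endoplasmic reticulum, rose by 0.54 and 0.27. Members of the list thus moved in both directions.

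Of 9 tested genes that IL32 binds or induces, 4 rose and 4 fell with shAHR#2 and 5 rose and 2 fell with shAHR#3, with medians of 0.09 and 0.11; over all genes 65.8% and 54.4% were called. Of the listed cytokines that IL32 is known to induce, only CXCL8 was called higher with both hairpins. The neutrophil chemokine CXCL8 rose from 9.39 to 48.6 and 20.7 CPM (log2 2.37 and 1.14). IL1B rose with shAHR#2 from 0.626 to 2.43 CPM (log2 1.93, adjusted p = 2.02e-06), but with shAHR#3 stood at 0.520 CPM (log2 -0.26, adjusted p = 0.616). IL6, picked after its values were seen, was at 0.09 with shAHR#2 and 1.06 with shAHR#3. TNF had no reads in any library. Of the focal adhesion genes, PXN, the adaptor paxillin, fell by 0.92 and 0.51, and PTK2, which encodes focal adhesion kinase, rose by 0.86 and 0.43. ITGB3, a chain of the integrin that IL32 binds, fell with shAHR#2 by 0.71 and rose with shAHR#3 by 0.99; it was picked after its values were seen for moving in opposite directions, so that the difference of 1.70 between the hairpins is a description.

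Of 15 tested AP-1, C/EBP and NF-kB subunits, factors of the kind known to act at cytokine promoters, 7 rose and 4 fell with shAHR#2 and 6 rose and 2 fell with shAHR#3, with medians of 0.02 and 0.04. The shares called are about those over all genes, 65.8% and 54.4%. JUNB rose by 0.62 and 0.63 and FOSL2 by 0.72 and 0.44. JUND fell with shAHR#2 by 1.01 and was at -0.09 with shAHR#3 (adjusted p = 0.177), and ATF3 fell with shAHR#2 by 0.61 and was at -0.40 with shAHR#3 (adjusted p = 0.0643).

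**Figure D4:**
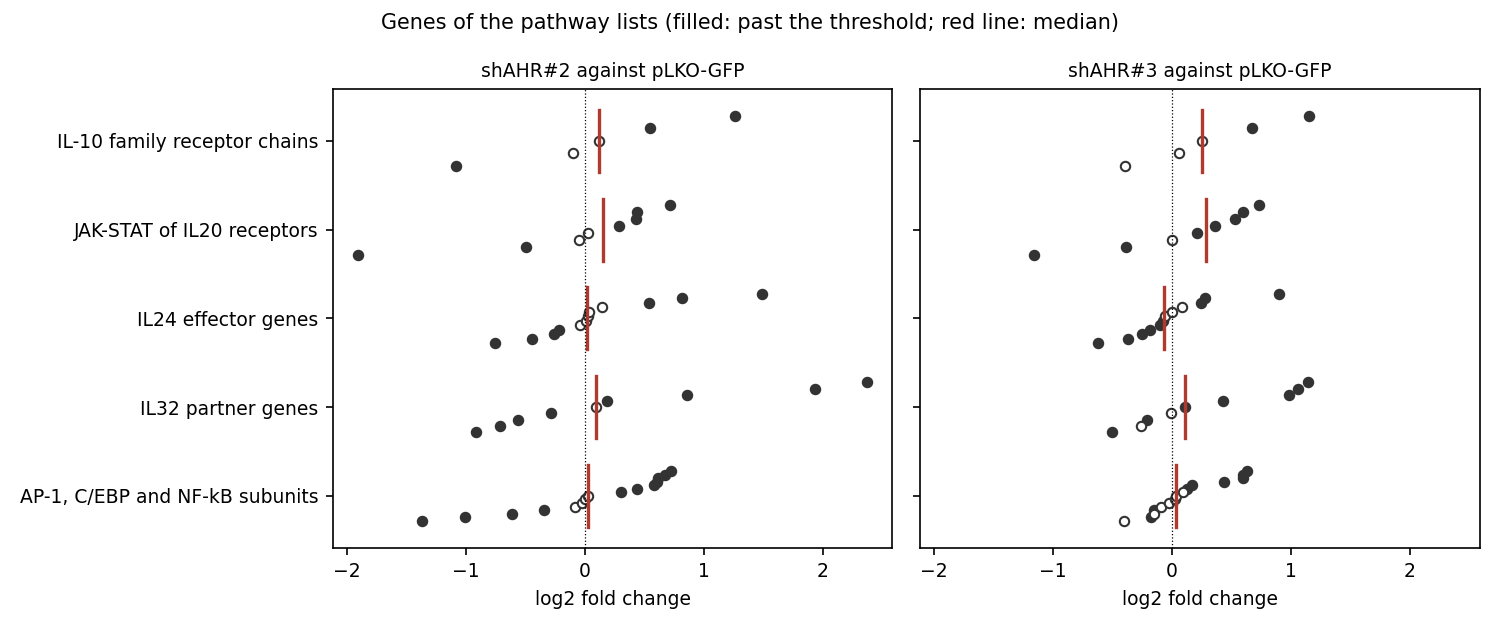
Log2 fold change against pLKO-GFP of the tested genes in 5 lists, with filled points past an adjusted p of 0.05 and a red line at the median. Every median lies within 0.3 of zero, and each list except the receptor chains with shAHR#3 holds called genes on both sides of zero.

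Cytokine transcripts can also come from leukocytes. Among 10 lymphocyte markers, CD3D, CD3E, CD2, NKG7 and MS4A1 had no reads in any library, and the list summed to 0.152 to 0.339 CPM in pLKO-GFP, 1.01 to 2.04 in shAHR#2 and 0.926 to 1.86 in shAHR#3 libraries. That rise lay in PTPRC, which encodes CD45 and went from 0.119 to 1.38 and 1.00 CPM (log2 3.45 and 2.98). The 6 myeloid markers, with FCGR3A at 0, summed to 4.25 to 5.92, 5.32 to 6.70 and 5.76 to 6.79 CPM. LYZ, which encodes lysozyme, rose from 0.537 to 2.99 and 1.74 CPM (log2 2.46 and 1.67), while CD14 was lower with shAHR#2 (log2 -1.40, adjusted p = 0.00348) and CSF1R fell with shAHR#2 (log2 -0.78, adjusted p = 0.00316). CD14 passed the filter on low counts only through the control libraries, where it is high, so its call is no support for a fall. PTPRC and LYZ passed it only through the knockdown libraries, where they are high, so their values are no support for a rise. Of the luminal markers, the adhesion gene CDH1 rose by 1.00 and 2.19. These shifts ran against the falls of IL24 and IL32 or in mixed directions, and their part in the result was not tested.

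Distances are from the nearer end of a member, negative upstream of it on its strand. Within 200 kb of IL24, 6 genes were tested, of which 5 fell and none rose with shAHR#2 (median log2 -1.03), and 3 fell and none rose with shAHR#3 (median -0.04). Over all 14274 genes, 4737 fell with shAHR#2 and 3931 with shAHR#3. On the upstream side the only one was the kinase gene MAPKAPK2, at -163.2 kb, with log2 fold changes of -0.82 and -0.17. Besides the overlapping FCMR, the nearest downstream were C1orf116 at 114.4 kb, not called with either hairpin, PFKFB2, a regulator of glycolysis, at 130.2 kb (-1.24 and -0.33), and the deubiquitinase gene YOD1 at 139.7 kb (-0.17, and 0.10 with an adjusted p of 0.0634). C4BPB, at 184.7 kb and picked after its values were seen, was at -1.26 with shAHR#2 and 0.13 with shAHR#3 (adjusted p = 0.157). FCMR, which is counted among these falls, had the largest fall of the 6 with either hairpin. It shares exon bases with IL24, so some of its reads may be those of IL24, which was not tested.

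Near IL32, 14 genes were tested, and 4 rose and 4 fell with each hairpin (medians -0.07 and -0.05), where 65.8% and 54.4% of all genes were called. Upstream, MMP25-AS1 at -5.9 kb rose by 1.14 and 0.74, THOC6 at -37.5 kb fell by 0.68 and 0.40, and HCFC1R1 at -41.0 kb fell by 0.59 and 0.73. Downstream, ZNF213-AS1, ZNF205 and ZNF213, at 18.5, 30.4 and 47.6 kb, were not called with either hairpin. ENSG00000272079, at -57.9 kb, fell by 2.14 and 1.69, and was picked after its values were seen as the largest fall in the window. It is among the 4 genes counted as falling with each hairpin. It passed the filter on low counts only through the control libraries, where it is high, so its calls are no support for a fall.

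Several neighbours of the receptor chains are receptor chains themselves. IFNGR1, a chain of the interferon gamma receptor at -152.3 kb from IL20RA, rose by 0.38 and 0.55, and PEX7, the other tested gene there, rose by 0.59 and 0.38. IFNLR1 lies at -11 kb from IL22RA1. Beside IL10RB, IFNAR2 fell by 0.35 and 0.36, IFNAR1 rose by 0.36 with shAHR#2 and fell by 0.14 with shAHR#3, and IFNGR2 fell by 0.21 with shAHR#2 and was at -0.07 with shAHR#3 (adjusted p = 0.436). Around IL20RB, 2 of 5 rose with shAHR#2 and 1 with shAHR#3, and none fell, against 65.8% and 54.4% of all genes called in either direction.

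**Figure D5:**
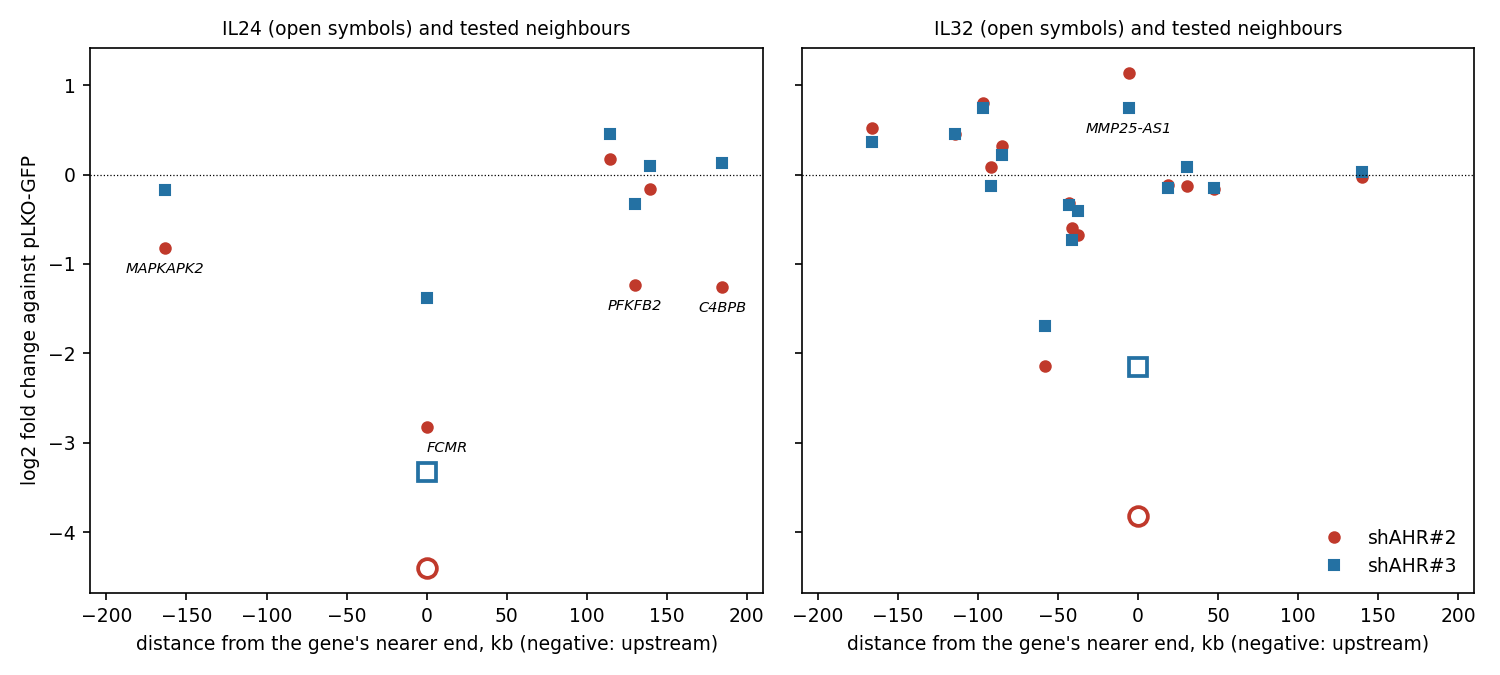
Log2 fold change against pLKO-GFP of the tested genes within 200 kb of IL24 (left) and IL32 (right), by distance in kb from the gene's nearer end, with circles for shAHR#2, squares for shAHR#3 and open symbols for IL24 and IL32 themselves. FCMR, which overlaps IL24, is at -2.82 and -1.38, and the other neighbours of IL24 lie between -1.26 and 0.46.

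The genes whose pattern over the 9 libraries was most like that of IL24, by the mean absolute difference of log2 CPM set relative to the control mean, were LGALS12, NCAM2, EHD3, RNF180 and POU3F2, at distances of 0.354 to 0.421 (Pearson r 0.955 to 0.971). The prior count of 2 in this log2 CPM shrinks falls to counts near 0. The fitted log2 fold changes with shAHR#2 ran from -8.44 to -5.56 for these genes, against -4.40 for IL24. LGALS12, which encodes a galectin, had 134 reads over the control libraries, none with shAHR#2 and 14 with shAHR#3, and POU3F2, a neural transcription factor, had 97, 0 and 2. Most like IL32 were GUSBP5, CALB2, TNS1, LINC02009 and LINC02475, at 0.331 to 0.384. Their fitted log2 fold changes with shAHR#2 ran from -6.94 to -2.79, against -3.82 for IL32. CALB2, which encodes the calcium-binding protein calretinin, went from 20.9 to 2.92 and 4.24 CPM, and TNS1, a focal adhesion gene, from 11.7 to 1.09 and 2.54 CPM. The points share their libraries and the contrast on which IL24 and IL32 were chosen. IL24 and IL32 differed from each other by 0.725, which made IL32 number 34 among the genes nearest to IL24, and IL24 number 111 among those nearest to IL32.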

How the data were processed

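Stranded mRNA libraries were made by the authors and read from one end (NextSeq 500). Alignment was with STAR to GRCh38.p13, and the deposited table holds raw counts, as whole numbers per gene, that were not normalized. The submitters' processing notes also name FastQC, Subread and featureCounts. Versions, annotation release and strand setting are not given in the sources used here. Groups were taken from the labels.

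The rest was computed with R 4.3.3, edgeR 4.0.16, limma 3.58.1 and Python 3.11.15. A gene entered the test if it passed filterByExpr (count of 10, total of 15), as did 14274 of 60649 genes and all 6 members; IL24, IL32 and IL20RB passed through the control libraries, where they are high. Libraries were scaled by TMM. One quasi-likelihood fit (glmQLFit, glmQLFTest) to the 9 libraries gave all comparisons, with Benjamini-Hochberg adjustment over all genes tested and a threshold of 0.05. The fits were tested on simulated data. Within groups, replicate libraries differed beyond counting noise (chi-square over its degrees of freedom, 1.76 to 4.24), so each was counted.

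Members and lists were chosen with earlier results of these data known. Named are the members, genes overlapping them, up to 4 called genes per list with the largest mean effect of both hairpins, any IL-10 family gene with a read, the 5 genes most like IL24 and IL32, and tested neighbours within 200 kb (the 3 nearest on each side of IL24 and IL32); exceptions are marked. Some genes of the lists are not reported here by name. For log2 CPM a prior count of 2 was used. Positions are from GENCODE 44 and promoter windows from RefSeq, with all 6 members matched. Alternatives were DESeq2 1.42.0, its size factors in edgeR, no filter, a mean of at least 50 counts, only the groups compared, a replicate block, each library left out, an adjusted p under 0.01, a 500 kb window, and Pearson correlation for likeness.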

Additional observations from a re-analysis of the deposited data

How the results depend on the processing

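The IL20RA rise kept its direction and its call with both hairpins in every alternative that gave a value. The falls of IL24 and IL32 kept their direction in the same alternatives. No member reached a mean of 50 counts, so that filter gave none of them a value. The IL-10 family ligand list then held no tested gene, since IL24 was its only one. The receptor chain list held 1 called gene in place of 3 with shAHR#2 and 2 with shAHR#3. The IL20RB fall with shAHR#2 was -1.10 with DESeq2, -1.09 with no filter and -1.09 at an adjusted p under 0.01, and missed the threshold in each. Leaving out each library gave -1.21 to -0.90 for IL20RB with shAHR#2, -4.26 to -3.35 for IL32 with shAHR#2, -2.72 to -1.81 for IL32 with shAHR#3, 1.10 to 2.10 for IL32 between hairpins and 0.74 to 1.31 for IL24 between hairpins. It turned the sign of small differences that no fit called: IL22RA1 with shAHR#2 (-0.039 to 0.38), IL10RB with shAHR#2 (-0.46 to 0.33), with shAHR#3 (-0.19 to 0.48) and between hairpins (-0.11 to 0.51), and IL20RA between hairpins (-0.32 to 0.082). The cause was not tested.

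The labels link libraries with one replicate number by that number only. Their deviations from the group means correlated at 0.00314 to 0.0578 (median 0.0278). Those of libraries with different numbers correlated at -0.0680 to 0.0234 (median -0.018). Whether the numbers mark a weak pairing was not tested. With the replicate block, 9406 genes were called with shAHR#2 in place of 9390, 7844 with shAHR#3 in place of 7771 and 6107 between hairpins in place of 6031, and no member changed its call. Of the genes most like IL24 and IL32, 0 were shared when Pearson correlation was used instead. Within 500 kb of IL24, 10 of 12 tested genes fell with shAHR#2 and 5 with shAHR#3, and 1, CD55, rose with each hairpin. These 12 include the 6 genes already counted in the 200 kb window. Of all 14274 genes tested, 4737 fell with shAHR#2 and 3931 with shAHR#3. Counts of 1 to 29 reads in IL20RB, IL22RA1, IL10RB and the knockdown values of IL24 and IL32 limit their precision.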
